A study of Mus musculus with 28 samples.

Results

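The genes described here move bile acids and phospholipid across the hepatocyte membrane, or sense bile acids in the nucleus. They are the 10 genes Slc10a1, Abcb11, Abcb4, Abcc2, Abcc3, Abcc4, Slc51a, Slc51b, Nr1h4 and Nr0b2, chosen by symbol from the 32544 genes of the deposited count tables. All 10 were present in the male and the female table, and 9 passed the filter on low counts in each. Slc51a did not pass it.

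Hepatocytes take conjugated bile acids up from portal blood across the sinusoidal membrane and pump them into bile across the canalicular membrane. When bile acids build up in the cell, the nuclear receptor FXR, encoded by Nr1h4, binds them and switches on genes that export bile acids and that hold back their synthesis, among them Nr0b2, which encodes the repressor SHP. A further set of exporters in the sinusoidal membrane can return bile acids to blood, and several of them are known to rise in cholestasis.

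The samples are whole-liver RNA of 28 mice of strain C57BL/6, sequenced singly, at a labelled age of 13 weeks. Floxed control mice (CT) were compared with mice lacking c-Myc in endothelial cells (KO, labelled EC-Myc KO). The floxed allele is carried by the controls, and the labels do not name the Cre driver. CT and KO mice alike were injected with tamoxifen at 5 weeks of age, which activates Cre, and after 2 weeks were fed for 5 weeks, either low-fat control chow, here CTD, or the diet rich in fat and cholesterol, here HFC. Each of the 4 combinations of genotype and diet held 4 males and 3 females. Males and females were deposited in separate tables of different depth, so sex and table cannot be told apart. Animals of the 2 diets carry numbers from ranges that do not meet, so any cohort effect cannot be told apart from diet.

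Male libraries summed to 22154774 to 22652285 reads and female libraries to 18741939 to 19195502. Levels are given as read counts scaled to a common library total (CPM) scaled by trimmed mean of M-values (TMM), with factors from 0.842 to 1.19. Group means over all animals of Myc ran from 6.42 to 11.4 CPM in males and from 6.51 to 11.9 CPM in females. The KO mean was above the CT mean in both sexes on both diets, with overlapping animals. KO against CT was not called in either sex on either diet. Myc RNA in whole liver comes from many cell types, so its level does not check the endothelial deletion. The hepatocyte marker list (10 genes, Alb and Apoa1 among them) summed to between 84481 and 199447 CPM in every library.

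The upstream sequences of the transporters with the largest rise and the largest fall (Slc51b and Slc10a1), of the bile salt export pump and of the best known FXR target are shown here because they are where a receptor site next to the start would lie. RefSeq promoter windows on GRCm38.p6, from 250 bases before the transcription start to 50 after it, were found for 9 of the 10 genes (11 windows, since Slc10a1 and Abcc4 have 2 starts each). Abcc3 had no entry. The 250 bases before the start are printed 5′ to 3′ on the strand of the gene, for Abcb11 at chr2:69342617-69342866 (minus strand), Slc51b at chr9:65422774-65423023 (minus), Slc10a1 at chr12:80968706-80968955 (minus) and Nr0b2 at chr4:133553126-133553375 (plus). Capitals mark matches, with at most 2 mismatches, to the inverted repeat AGGTCANTGACCT, the consensus that FXR binds with its partner RXR.
Abcb11: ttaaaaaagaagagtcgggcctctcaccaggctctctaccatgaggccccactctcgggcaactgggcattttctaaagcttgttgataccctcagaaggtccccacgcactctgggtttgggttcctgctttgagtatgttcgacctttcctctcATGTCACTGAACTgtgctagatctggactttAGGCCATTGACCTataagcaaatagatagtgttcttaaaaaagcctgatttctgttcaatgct
Slc51b: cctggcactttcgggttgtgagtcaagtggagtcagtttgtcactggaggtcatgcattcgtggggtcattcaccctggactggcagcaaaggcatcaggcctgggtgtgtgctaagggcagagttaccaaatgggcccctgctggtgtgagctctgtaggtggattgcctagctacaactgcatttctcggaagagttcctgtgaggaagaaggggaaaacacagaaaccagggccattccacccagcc
Slc10a1: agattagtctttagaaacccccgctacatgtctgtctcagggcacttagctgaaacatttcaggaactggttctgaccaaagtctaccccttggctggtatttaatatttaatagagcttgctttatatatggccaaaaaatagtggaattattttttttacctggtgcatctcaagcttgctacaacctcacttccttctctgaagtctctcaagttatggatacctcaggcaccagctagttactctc
Nr0b2: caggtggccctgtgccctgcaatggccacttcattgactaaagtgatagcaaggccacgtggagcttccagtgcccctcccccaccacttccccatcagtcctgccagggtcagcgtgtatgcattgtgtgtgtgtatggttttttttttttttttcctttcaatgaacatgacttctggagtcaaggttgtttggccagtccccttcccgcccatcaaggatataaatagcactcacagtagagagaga

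Among the 11 windows the repeat was matched in the Abcb11 window alone, with 1 mismatch starting 63 bases before the start and with 2 mismatches starting 94 bases before it. Over all 32851 windows of the table, 0.082% held a match with at most 1 mismatch and 1.14% with at most 2, counting both strands. The shorter AGGTCA hexamer, which is contained in the repeat, was present on either strand in 6 of the 11 windows and in 16.3% of all windows. These are the windows of Abcb11, Slc51b, Nr1h4, the second start of Slc10a1, Slc51a and Abcc2. TCAAGGTCA, the extended site of receptors that bind as monomers such as Nr5a2, was not matched exactly in any of the 11 and was in 0.423% of all windows. A match is a string of letters, and binding was not measured.

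On CTD the 10 genes spanned a wide range of levels. Divided by the merged exon length in GENCODE M21, male CT livers on CTD held 414 ± 40.5 CPM per kb of Slc10a1 (SD, n = 4), the most abundant of the 10. Abcb11 followed at 107 ± 7.05, Abcc2 at 87.9 ± 5.28 and Nr1h4 at 65.8 ± 7.36 CPM per kb, and the animals of these genes did not overlap with those of the next in order. Abcc3 at 33.7 ± 6.48 and Abcb4 at 31.8 ± 1.85 CPM per kb overlapped with each other. Nr0b2 stood at 19.5 ± 2.61 CPM per kb. Slc51b at 0.519 ± 0.0553 and Abcc4 at 0.406 ± 0.0760 CPM per kb were the lowest of the genes with reads in every liver, and their animals overlapped. In female CT livers on CTD, Slc10a1 again came first at 372 ± 39.4 CPM per kb (SD, n = 3), while Nr1h4, Abcc2 and Abcb11 lay together between 55.1 and 77.8 CPM per kb in single animals. In male CT livers fed HFC the 3 highest kept their order, but Slc10a1, at 183 ± 36.1 CPM per kb, now overlapped in single animals with Abcb11, at 141 ± 20.9. Abcc3 (65.3 ± 17.6) and Nr0b2 (49.8 ± 11.2) stood above Nr1h4 (48.8 ± 5.14) in the mean, with overlapping animals, and Slc51b (4.10 ± 1.56) stayed below all of these.

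**Figure D1:**
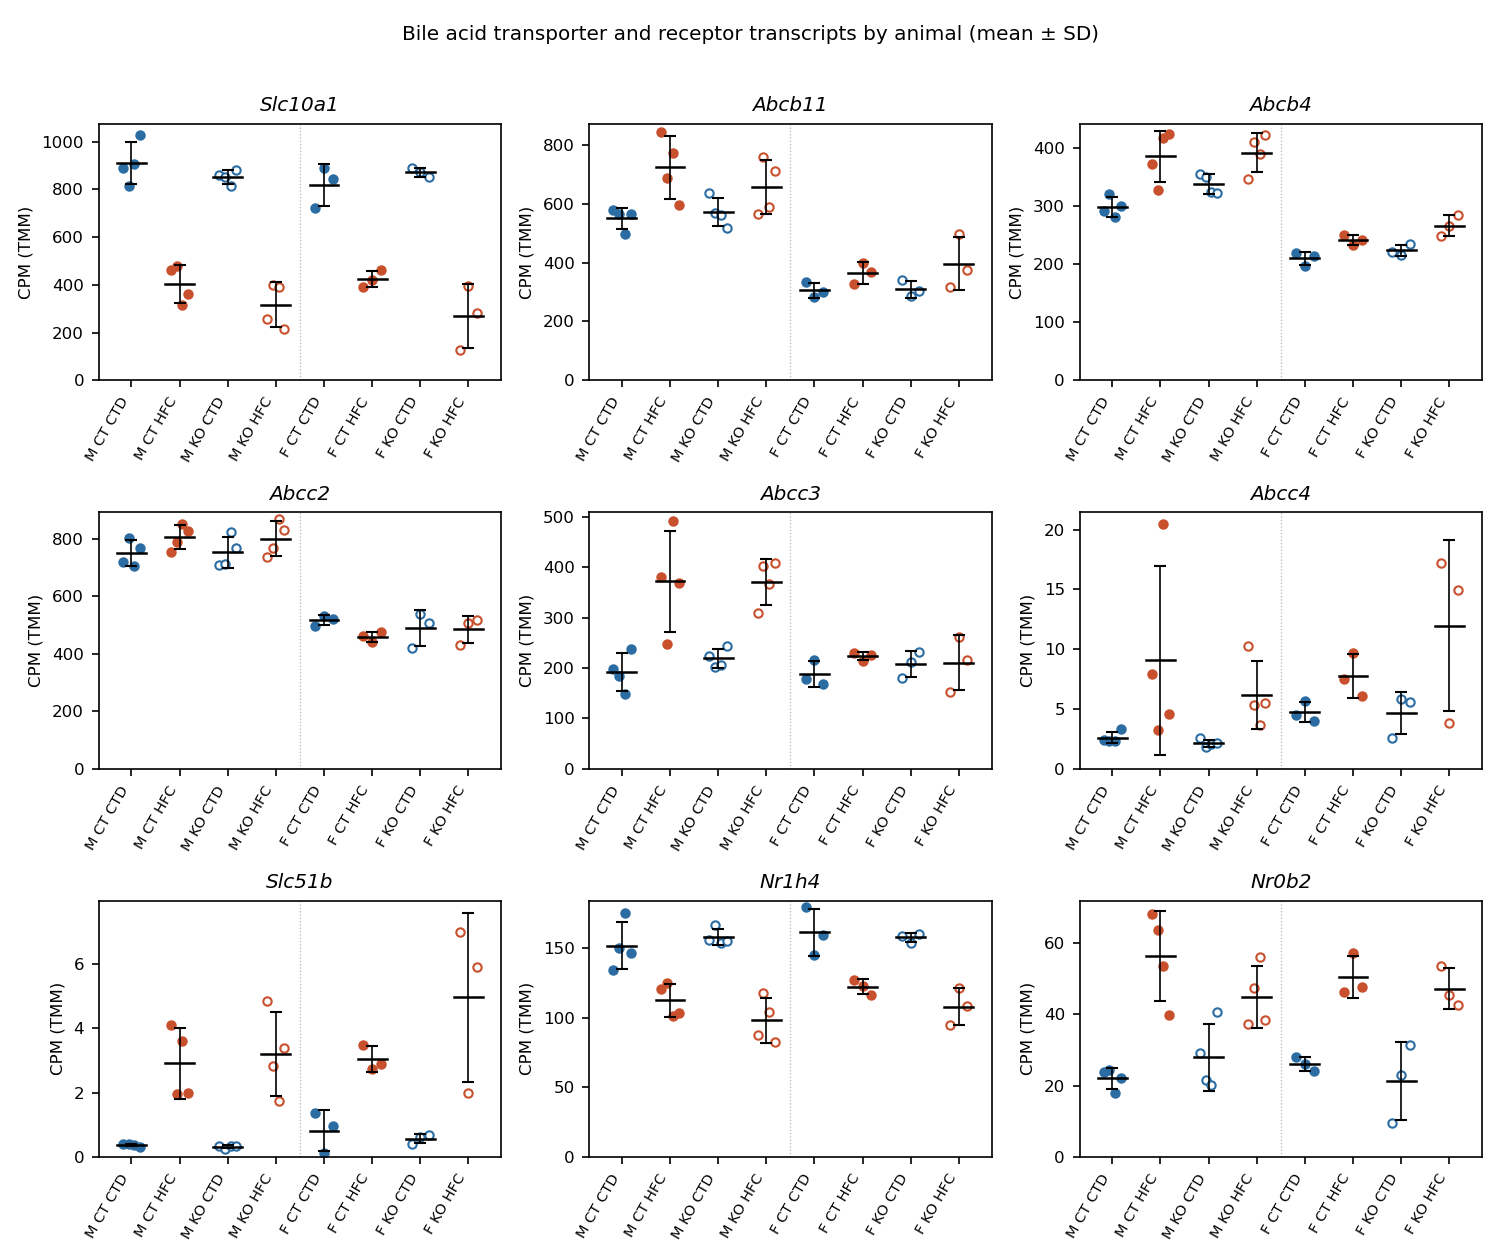
TMM-scaled CPM (vertical axes, from 0) of 9 of the 10 genes in each liver, by sex (M, F), genotype (CT filled, KO open) and diet (CTD blue, HFC red); each point is 1 animal, and bars give the mean and SD. Slc10a1 and Nr1h4 sit lower, and Slc51b and Nr0b2 higher, in the HFC groups of both sexes.

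What the diet did to these genes was compared first in the controls. In CT males 6 of the 9 tested genes rose on HFC (Abcb11, Abcb4, Abcc3, Abcc4, Slc51b and Nr0b2), 2 fell (Slc10a1 and Nr1h4), and Abcc2 was not called. Over all 14078 tested genes of males, 20% were called in this comparison, 10.6% higher and 9.4% lower. The median log2 fold change was 0.39 over the 9 genes and -0.01 over all tested genes. The values of the diets did not overlap for 7 of the 9, against 21.6% of all tested genes. In KO males 4 genes rose (Abcc3, Abcc4, Slc51b and Nr0b2), 2 fell (Slc10a1 and Nr1h4) and 3 were not called, where 29.1% of all tested genes were called, 15.5% higher and 13.6% lower. Groups did not overlap for 5 of the 9 in KO males, against 30% of all tested genes.

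In CT females none of the 9 genes was called by edgeR's quasi-likelihood test, although 4 had an unadjusted p under 0.05 (Slc10a1, Slc51b, Nr1h4 and Nr0b2). DESeq2 called these 4. On the deposited CPM, which is scaled by library totals, limma called a different set of 4 (Abcb11, Abcb4, Slc51b and Nr0b2). Slc10a1 and Nr1h4 were not called there. Few genes of any kind were called in CT females, 2.19% of 13999, with 0.936% higher and 1.26% lower. The animals of the diets did not overlap for 7 of the 9 genes, against 28.3% of all tested genes. In KO females 2 genes rose (Slc51b and Nr0b2), 2 fell (Slc10a1 and Nr1h4) and 5 were not called, where 8.59% of all tested genes were called, 3.94% higher and 4.65% lower. Groups did not overlap for 5 of the 9, against 26.4% of all tested genes. The 4 genes called in KO females are among those called in the same direction in CT males and in KO males.

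**Figure D2:**
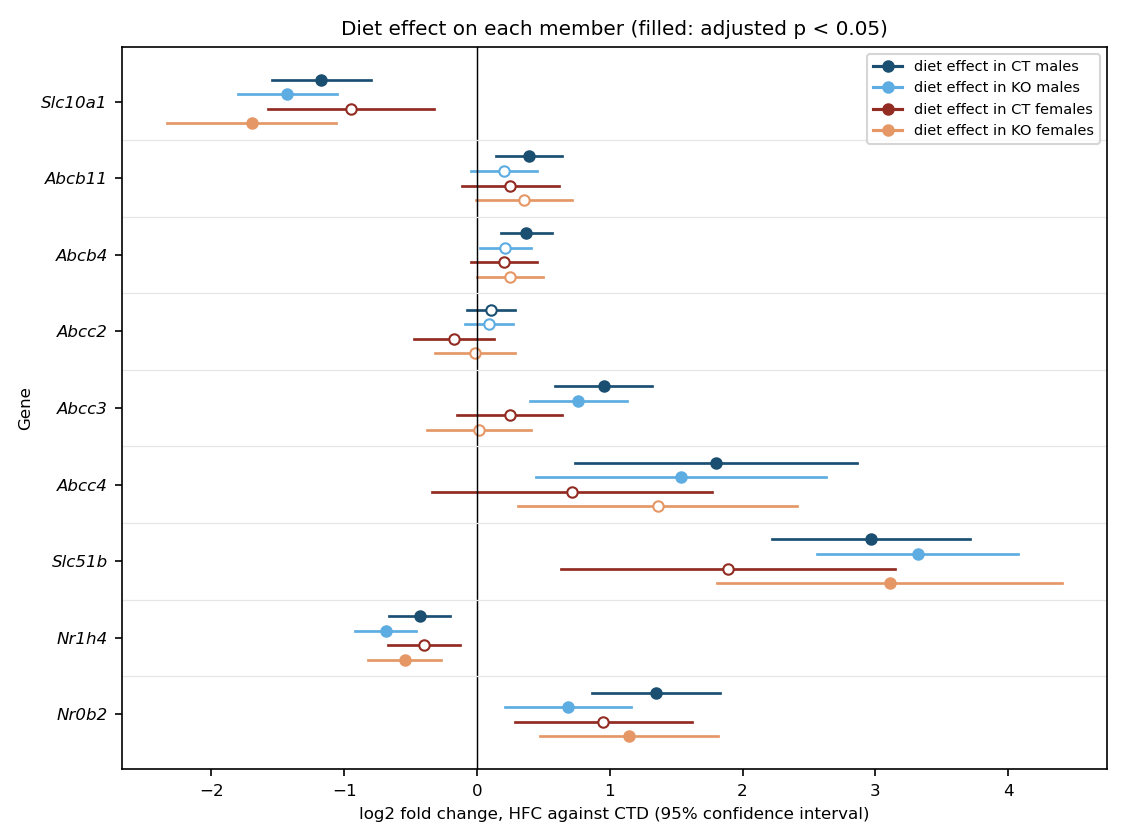
Log2 fold change of HFC against CTD (horizontal axis) with its 95% confidence interval for each gene in CT males, KO males, CT females and KO females; filled points passed an adjusted p of 0.05. Slc51b lies farthest to the right in all 4 comparisons, between 1.89 and 3.32, and Slc10a1 farthest to the left, between -1.70 and -0.95.

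Slc10a1 (ENSMUSG00000021135.8, chr12:80953183-80968705, minus strand) encodes NTCP, the sodium-dependent carrier that brings conjugated bile acids into the hepatocyte. Male CT livers held 888, 815, 908 and 1030 CPM under CTD and 462, 477, 313 and 361 CPM under HFC. Male KO livers held 862, 853, 814 and 883 CPM under CTD and 258, 401, 393 and 216 CPM under HFC. Every male on HFC lay below every male on CTD. The mean on HFC was 0.443 of that on CTD in CT males (log2 fold change -1.17, SE 0.18, edgeR adjusted p = 0.000373) and 0.372 in KO males (log2 -1.43, SE 0.18, adjusted p = 1.94e-05). In whole-liver RNA, fewer cells of a type and less RNA per cell cannot be told apart.

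Female CT livers held 722, 889 and 844 CPM of Slc10a1 on CTD and 392, 419 and 461 CPM under HFC. Female KO livers held 890, 874 and 850 CPM under CTD and 129, 395 and 283 CPM under HFC. The diets were as cleanly separated as in males, and KO HFC 412 at 129 CPM was the lowest liver of the series for this gene. The fall was called in KO females (log2 -1.70, SE 0.29, edgeR adjusted p = 0.00444), and in CT females the log2 fold change was -0.95 (SE 0.29, adjusted p = 0.104, 0.0204 by DESeq2). The hepatocyte marker list was compared too. Its summed level ran from 89275 to 118444 CPM in CT males on CTD and from 84481 to 105376 CPM under HFC, which overlap, and from 184893 to 193911 CPM in CT females on CTD against 120281 to 169044 CPM under HFC, which do not. In KO the sums did not overlap in either sex, at 109223 to 128294 CPM under CTD against 88518 to 101257 CPM under HFC in males and 175063 to 199447 against 125940 to 138715 CPM in females. Of its 10 markers 1 fell in CT males (Cps1), 4 in KO males, 1 in CT females (Tat) and 3 in KO females, and none rose. Over all tested genes 9.4%, 13.6%, 1.26% and 4.65% were called lower in that order, so the count in CT males lay near that share. The part of hepatocyte content in the Slc10a1 values was not tested.

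The canalicular exporters gave log2 fold changes between -0.17 and 0.39. Abcb11 (ENSMUSG00000027048.15, chr2:69238282-69342616, minus strand), the bile salt export pump, stood at 577, 564, 497 and 564 CPM in male CT livers on CTD and at 843, 686, 771 and 594 CPM under HFC. All 4 HFC livers lay above all 4 CTD livers. The log2 fold change was 0.39 (SE 0.12, edgeR adjusted p = 0.0256). Without CT CTD 305, CT CTD 313, CT HFC 416 or CT HFC 418 the call was lost, with adjusted p up to 0.0858 and log2 fold changes between 0.31 and 0.48 over the animals left out. Male KO livers had 635, 568, 563 and 518 CPM under CTD and 566, 758, 589 and 710 CPM under HFC. The female table, scaled on its own, held lower values, and a difference in level between the sexes was not tested. Female CT livers had 333, 283 and 301 CPM under CTD and 326, 398 and 367 CPM under HFC. Female KO livers had 341, 285 and 302 CPM under CTD and 318, 495 and 375 CPM under HFC. In the other comparisons Abcb11 gave log2 fold changes of 0.20 in KO males (adjusted p = 0.219), 0.25 in CT females (0.424) and 0.36 in KO females (0.205), and the HFC and CTD animals overlapped.

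Abcb4 (ENSMUSG00000042476.12, chr5:8893717-8959231, plus strand) encodes the phospholipid floppase that loads phosphatidylcholine into bile and so shields the ducts from bile salts. Male CT livers held 291, 321, 280 and 300 CPM under CTD and 372, 328, 416 and 424 CPM under HFC, again without overlap (log2 fold change 0.37, SE 0.09, edgeR adjusted p = 0.00876). In KO males the values were 356, 351, 325 and 322 CPM under CTD and 346, 409, 389 and 423 CPM under HFC, with KO HFC 414 inside the CTD range (log2 0.21, edgeR adjusted p = 0.0901, and 0.0447 without KO HFC 414). DESeq2 called the rise with all animals kept (log2 0.22, adjusted p = 0.0385). Females of both genotypes showed no overlap between diets, at 197 to 218 against 233 to 250 CPM in CT and 216 to 234 against 248 to 285 CPM in KO. Their log2 fold changes of 0.20 and 0.25 were not called (adjusted p = 0.342 and 0.198).

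Abcc2 (ENSMUSG00000025194.5, chr19:43782192-43840740, plus strand), which exports bilirubin conjugates and glutathione into bile, showed log2 fold changes of 0.10 in CT males, 0.09 in KO males, -0.17 in CT females and -0.01 in KO females. Single livers ran from 707 to 805 CPM under CTD and from 755 to 851 CPM under HFC in CT males, from 710 to 824 and from 735 to 871 CPM in KO males, and from 419 to 539 and from 430 to 516 CPM in KO females, all overlapping. None was called, and the 95% confidence intervals lay between -0.47 and 0.29. In CT females the 3 HFC livers, at 463, 439 and 475 CPM, lay just below the 3 CTD livers at 497, 533 and 521 CPM. These small values depend on the scaling. With scaling by library totals rather than TMM the median log2 change over all tested genes moved to 0.22 in CT males, 0.26 in KO males, 0.30 in CT females and 0.32 in KO females, and changes here are relative to the TMM scale. On library totals Abcc2 was called higher in CT males (log2 0.33) and KO males (0.36), and its sign turned to positive in both female comparisons without a call. Abcb11 and Abcb4 were called higher on library totals in all 4 comparisons.

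The sinusoidal exporters included the largest rise among the 9 genes. Slc51b (ENSMUSG00000053862.6, chr9:65412714-65422955, minus strand) encodes the beta subunit of the organic solute transporter, which lets bile acids leave the cell toward blood. Male CT livers held 0.396, 0.398, 0.364 and 0.314 CPM under CTD, that is 7 or 8 reads each, and 4.11, 1.94, 3.59 and 1.99 CPM under HFC. Male KO livers held 0.328, 0.249, 0.341 and 0.343 CPM under CTD and 4.84, 2.83, 1.74 and 3.38 CPM under HFC. The lowest HFC male was above the highest CTD male by a wide margin. The ratio of means was 7.90 in CT males (log2 fold change 2.97, SE 0.35, edgeR adjusted p = 6.62e-05) and 10.1 in KO males (log2 3.32, SE 0.36, adjusted p = 4.8e-06).

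Female CT livers held 1.37, 0.117 and 0.964 CPM of Slc51b on CTD and 3.48, 2.73 and 2.88 CPM under HFC. Female KO livers held 0.413, 0.610 and 0.679 CPM under CTD and 6.98, 1.99 and 5.89 CPM under HFC. The diets did not overlap in either genotype. The CTD animals of the CT group spread from 2 to 22 reads, and that comparison was not called (log2 1.89, SE 0.58, edgeR adjusted p = 0.109, 0.0231 by DESeq2), while KO females were (log2 3.11, SE 0.60, adjusted p = 0.00860). On the opposite strand Rasl12 overlaps Slc51b over 91 of its 709 exonic bases, and whether counting used strand is not given, so reads there cannot be assigned with certainty. Rasl12, looked up after the Slc51b values were seen, held means of 0.413 and 0.594 CPM in CT males on CTD and HFC (3 to 19 reads) and was not called in males (log2 0.52, adjusted p = 0.403 in CT, and 0.95, 0.0939 in KO). In females it did not pass the filter on low counts.

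Slc51a (ENSMUSG00000035699.8, chr16:32474504-32487879, minus strand), the alpha subunit that the transporter needs for its function, was all but absent from these libraries. It had no read in 25 of 28 livers, and 1, 1 and 2 reads in KO HFC 539 (male), KO CTD 317 (female) and KO HFC 419 (female). A count of 0 allows up to 3 reads, which is 0.112 to 0.156 CPM in males and 0.137 to 0.187 CPM in females, for counting error alone. The 3 livers with a Slc51a read, KO HFC 539, KO CTD 317 and KO HFC 419, held 1.74, 0.679 and 5.89 CPM of Slc51b. KO HFC 412, with the most Slc51b at 6.98 CPM, had no Slc51a read. A diet effect on Slc51a could not be tested at these counts. Pcyt1a overlaps Slc51a on the opposite strand over 567 exonic bases and held 79.3 to 98.6 CPM as group means in males.

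Abcc4 (ENSMUSG00000032849.14, chr14:118482692-118706219, minus strand), also called MRP4, exports bile acids together with glutathione and is scarce in normal hepatocytes. Male CT livers held 2.38, 2.34, 2.34 and 3.32 CPM under CTD and 7.92, 3.22, 20.5 and 4.61 CPM under HFC. CT HFC 418 stood far above the other HFC livers, and CT HFC 417 lay within the CTD range. The rise was called (log2 1.80, SE 0.50, edgeR adjusted p = 0.0205). Without CT HFC 418 the log2 fold change was 1.01 (adjusted p = 0.0558), and the call was also lost without CT CTD 301, 305 or 313 (adjusted p from 0.0557 to 0.0568). With only the 2 groups compared it was lost as well (edgeR adjusted p = 0.0847). Male KO livers held 2.53, 1.79, 2.10 and 2.11 CPM under CTD and 10.3, 5.33, 3.64 and 5.50 CPM under HFC, without overlap (log2 1.54, SE 0.51, adjusted p = 0.0353). That call was lost without any 1 of the 4 KO CTD males, KO HFC 414 or KO HFC 540, with log2 fold changes from 1.17 to 1.72 and adjusted p from 0.0265 to 0.130 over the animals left out. It was also lost without the filter on low counts (edgeR adjusted p = 0.0716).

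In females Abcc4 stood at 4.50, 5.67 and 4.03 CPM in CT livers on CTD and 7.49, 9.72 and 6.08 CPM under HFC, without overlap (log2 0.72, SE 0.48, edgeR adjusted p = 0.429). KO livers held 2.60, 5.83 and 5.54 CPM under CTD and 17.2, 3.79 and 14.9 CPM under HFC. KO HFC 413 stayed at the CTD level while the other 2 were the highest female livers. The log2 fold change was 1.36 (SE 0.48, adjusted p = 0.104, 0.0235 by DESeq2) and reached 1.78 without KO HFC 413 (adjusted p = 0.00154).

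Abcc3 (ENSMUSG00000020865.16, chr11:94343295-94392997, minus strand), also called MRP3, carries glucuronides and bile acids to blood and, unlike Abcc4, was well expressed on CTD. Male CT livers held 198, 184, 148 and 237 CPM under CTD and 381, 247, 492 and 368 CPM under HFC, without overlap (log2 0.95, SE 0.17, edgeR adjusted p = 0.00134). Male KO livers held 223, 203, 205 and 244 CPM under CTD and 308, 401, 367 and 408 CPM under HFC, also without overlap (log2 0.76, SE 0.17, adjusted p = 0.00339). Female values overlapped between diets in both genotypes. They were 179, 217 and 169 CPM against 229, 214 and 225 CPM in CT (log2 0.25, SE 0.18, adjusted p = 0.476) and 181, 211 and 233 CPM against 153, 262 and 216 CPM in KO (log2 0.01, SE 0.18, adjusted p = 0.972).

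Of the nuclear receptors, Nr1h4 fell and Nr0b2 rose wherever they were called. Nr1h4 (ENSMUSG00000047638.15, chr10:89454234-89533585, minus strand), FXR itself, held 134, 150, 175 and 147 CPM in male CT livers on CTD and 120, 125, 101 and 104 CPM under HFC. In male KO livers it held 156, 167, 154 and 155 CPM under CTD and 87.8, 118, 104 and 82.3 CPM under HFC. Neither genotype showed overlap between diets. The fall was called in CT males (log2 -0.43, SE 0.11, edgeR adjusted p = 0.0102) and KO males (log2 -0.69, SE 0.11, adjusted p = 0.000174). On library totals the fall kept its direction but was not called in CT males (log2 -0.20, adjusted p = 0.106).

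Female CT livers held 179, 145 and 159 CPM of Nr1h4 on CTD and 127, 123 and 117 CPM under HFC. Female KO livers held 159, 154 and 160 CPM under CTD and 94.4, 122 and 108 CPM under HFC. The diets were separate in both genotypes (log2 -0.40, SE 0.13, edgeR adjusted p = 0.116 in CT, and log2 -0.54, SE 0.13, adjusted p = 0.0196 in KO). The KO call was lost without KO CTD 307, 309 or 317 or without KO HFC 412 or 419, with adjusted p from 0.0527 to 0.0672, and on library totals (log2 -0.25, adjusted p = 0.145). With only the 2 groups compared it was lost too (edgeR adjusted p = 0.0832).

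Nr0b2 (ENSMUSG00000037583.2, chr4:133553376-133556536, plus strand), the FXR target that encodes SHP, held 24.0, 24.4, 17.9 and 22.1 CPM in male CT livers on CTD and 68.3, 63.6, 53.7 and 39.7 CPM under HFC, without overlap (log2 1.35, SE 0.22, edgeR adjusted p = 0.00109). Male KO livers held 29.3, 21.6, 20.1 and 40.8 CPM under CTD and 37.4, 47.4, 56.2 and 38.5 CPM under HFC. KO CTD 311 lay inside the HFC range, and the rise was called (log2 0.68, SE 0.22, adjusted p = 0.0319). That call was lost without KO CTD 298, 303 or 304 or without KO HFC 415 or 539, with adjusted p from 0.0554 to 0.0951. It was also lost without the filter on low counts (edgeR adjusted p = 0.0666) and with only the 2 groups compared (0.059).

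Female CT livers held 28.0, 26.2 and 24.1 CPM of Nr0b2 on CTD and 46.3, 57.3 and 47.8 CPM under HFC (log2 0.95, SE 0.30, edgeR adjusted p = 0.124, 0.0336 by DESeq2). Female KO livers held 9.62, 23.0 and 31.4 CPM under CTD and 53.6, 45.5 and 42.7 CPM under HFC (log2 1.14, SE 0.31, adjusted p = 0.0415). Every HFC female was above every CTD female of her genotype. The KO call was lost without KO CTD 309, KO HFC 412 or KO HFC 419, with adjusted p from 0.0735 to 0.150. It was also lost without the filter on low counts (edgeR adjusted p = 0.0803) and with only the 2 groups compared (0.159).

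Whether loss of endothelial c-Myc changed these genes was compared on each diet. None of the 9 tested genes was called for KO against CT in males on CTD, males on HFC, females on CTD or females on HFC, and in these comparisons edgeR called 0% of all tested genes. The numbers of all tested genes with an unadjusted p under 0.05 were 949, 653, 446 and 311 in that order, and those of the 9 were 0, 0, 0 and 1. DESeq2 and limma called none of the 9 either, while DESeq2 called 11, 3, 1 and 0 of all tested genes. The 1 gene was Slc10a1 in females on HFC, with 392, 419 and 461 CPM in CT and 129, 395 and 283 CPM in KO (log2 -0.66, 95% confidence interval -1.28 to -0.04, adjusted p above 0.99). In males on HFC the same gene gave a log2 fold change of -0.35 (-0.72 to 0.02, adjusted p = 0.958). The groups overlapped in both sexes.

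Over both sexes together, the mean KO effect on HFC was -0.50 for Slc10a1 (SE 0.17, unadjusted p = 0.00711, edgeR adjusted p = 0.784) and -0.18 for Nr1h4 (SE 0.08, unadjusted p = 0.0385, adjusted p = 0.784). Fed CTD, the mean effects were -0.0047 and 0.0097. edgeR called 0% of all tested genes for the mean KO effect on CTD and 0% for that on HFC, with 741 and 906 genes at an unadjusted p under 0.05, of which 0 and 2 were among the 9, and DESeq2 called 1 and 2 genes in all. For Slc51b the intervals were wide, from -0.45 to 0.72 in males on HFC and from -0.38 to 1.80 in females on HFC. They reached farther above 0 than below it, and genotype effects within these limits could not be told from none. For Abcc2 the intervals were narrower, at -0.19 to 0.17 and -0.22 to 0.38. Abcb4 in males on CTD was the only gene of the 9 whose genotype groups did not overlap in any of the 4 comparisons, where 3.99% of all tested genes of males on CTD did not (280 to 321 CPM in CT, 322 to 356 CPM in KO, log2 0.18, adjusted p = 0.748).

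**Figure D3:**
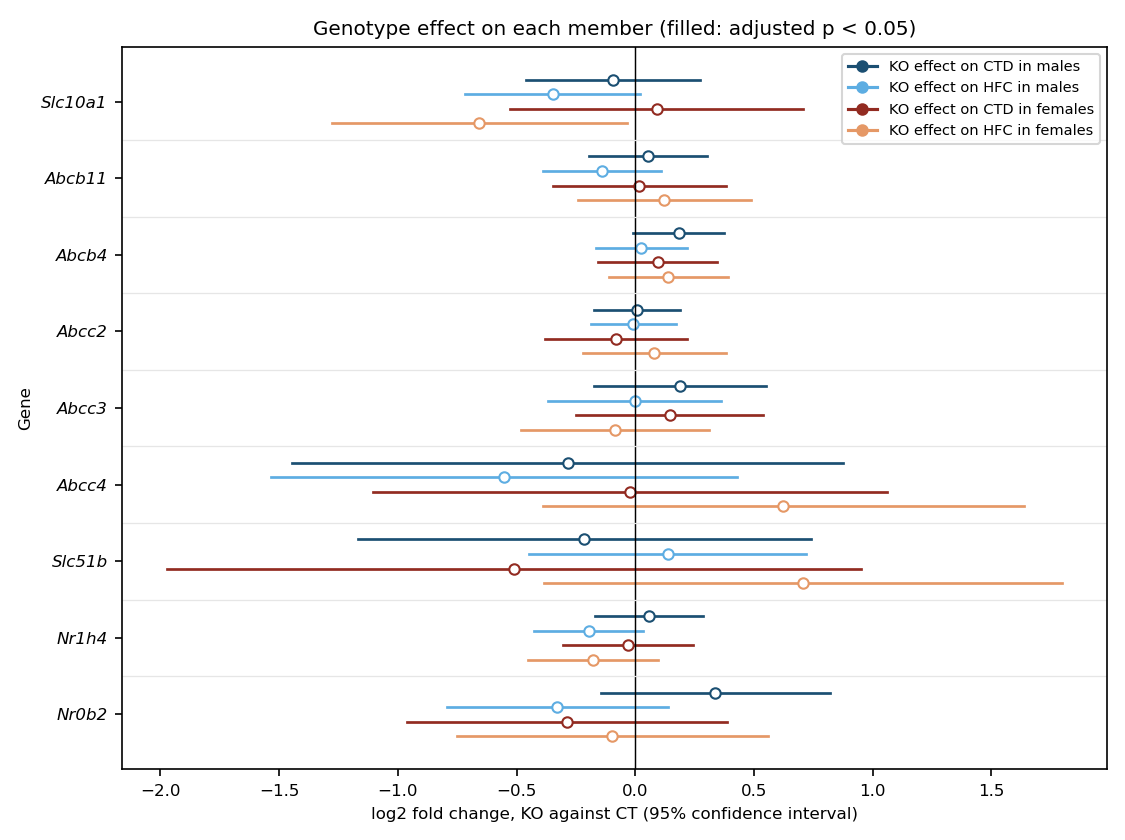
Log2 fold change of KO against CT (horizontal axis) with its 95% confidence interval for each gene in males and females on each diet; no point is filled because none passed an adjusted p of 0.05. All intervals include 0 except that of Slc10a1 in females on HFC, which runs from -1.28 to -0.04.

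The response to diet was also compared between genotypes and between sexes. The genotype by diet interaction was called for none of the 9 genes in males or females by edgeR, DESeq2 or limma, and edgeR called 0% of all tested genes in males and 0% in females (852 and 546 at an unadjusted p under 0.05, none of them among the 9; DESeq2 called 5 and 0 of all). The smallest unadjusted p was that of Nr0b2 in males (log2 -0.67, 95% confidence interval -1.34 to 0.01, unadjusted p = 0.0517, edgeR adjusted p = 0.824). In females it was that of Slc10a1 (log2 -0.75, -1.62 to 0.13, unadjusted p = 0.0878, edgeR adjusted p = 0.991).

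For female minus male diet effects, edgeR called 0.00681% of 14685 genes in CT and 0.157% in KO, and none of the 9 by edgeR, DESeq2 or limma. Abcc3 had the smallest unadjusted p of the 9 in both genotypes. Its diet effect was smaller in females than in males by log2 0.75 in CT (difference -0.75, SE 0.26, unadjusted p = 0.00812, edgeR adjusted p = 0.541) and by 0.77 in KO (difference -0.77, SE 0.26, unadjusted p = 0.00658, edgeR adjusted p = 0.297). Abcc2 in CT was the other with an unadjusted p under 0.05 (difference -0.31, unadjusted p = 0.0358, edgeR adjusted p = 0.680). The rise of Abcc3, called in both male genotypes, was thus not shown to differ between the sexes.

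Animals on HFC differed widely, and the genes were compared across them within a sex. Over the 36 pairs of the 9 genes in each sex, 72 relations in all, 1 passed an adjusted p of 0.05 by an exact two-sided permutation test of the log2 values. This was Slc10a1 with Nr1h4 across the 8 HFC males (Pearson r = 0.97, p = 2.5e-05, the smallest that the permutations can give, adjusted p = 0.00179, and Spearman rho = 1, adjusted p = 0.00357). The order of the 8 livers from CT HFC 417 down to KO HFC 540 was the same for the uptake carrier and for the receptor. Without the 2 livers farthest from the median of Slc10a1, r was 0.90 over 6. The genes share each library's scaling, and on the deposited CPM, a check added after the values were seen, r was 0.95. Each genotype alone holds too few animals for a value of its own. Only pairs of the 9 genes were compared here, so how many other genes follow Slc10a1 as closely was not counted. Over all 16 males of both diets, Slc10a1 had r = 0.96 with Nr1h4 and r = 0.97 with Hlf, a gene outside the 9.

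Across the 6 HFC females the same pair had r = 0.92 (exact permutation p = 0.0306, adjusted p = 0.2) and rho = 0.49 (p = 0.356), and without the 2 farthest livers r was -0.86 over 4, so the relation in females rests on those livers. Slc51b with Abcc4 had r = 0.76 across HFC males (exact permutation p = 0.0248, adjusted p = 0.2) and rho = 0.90 (p = 0.00456, adjusted p = 0.164), with r = 0.92 without the 2 farthest livers. In HFC females the pair had r = 0.93 (exact permutation p = 0.0125, adjusted p = 0.2) and rho = 0.83 (p = 0.0583). These did not pass the adjustment over 72 relations. KO HFC 412 and 419 were highest for both exporters among females, and these were the 2 female HFC livers with the least Slc10a1.

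**Figure D4:**
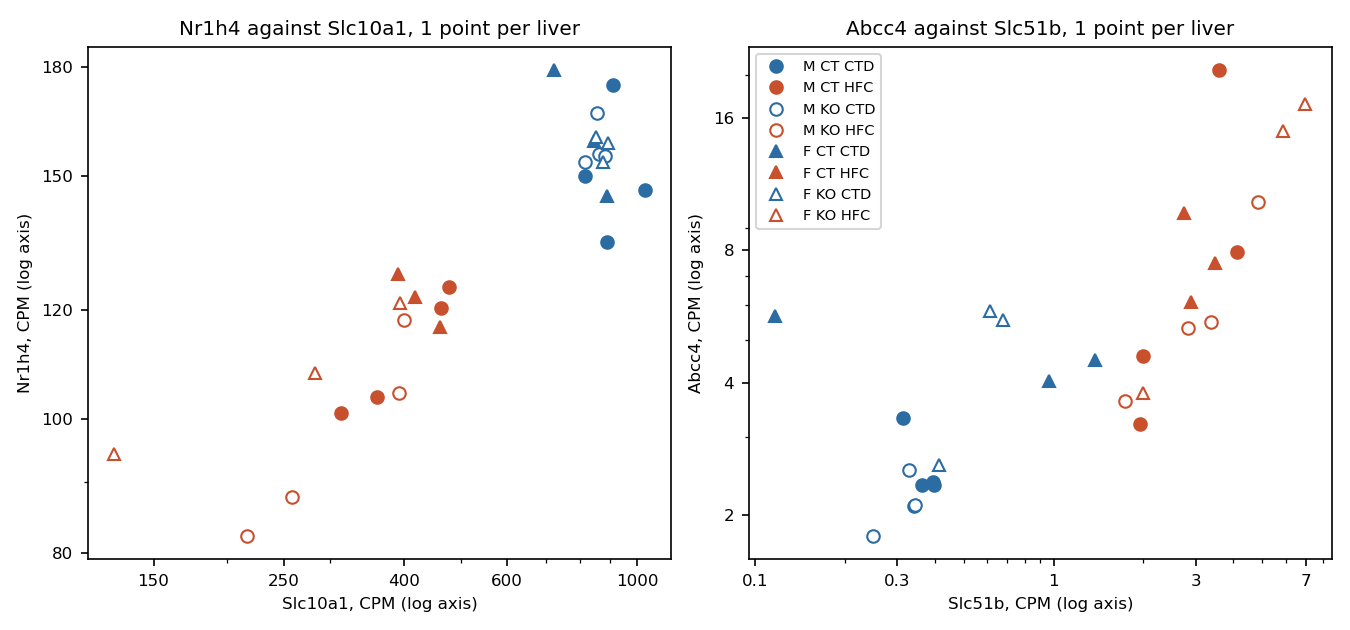
Nr1h4 against Slc10a1 (left) and Abcc4 against Slc51b (right), TMM-scaled CPM on log axes, 1 point per liver; circles are males, triangles females, filled CT, open KO, blue CTD, red HFC. Among red circles on the left both genes run in the same order, with Pearson r = 0.97 over 8 males.

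Of 13729 genes tested in both sexes, those most like Slc51b in pattern were Abcc12, Arhgap11a and Clic1, taken by the smaller of the Pearson correlations over the 16 male and over the 12 female libraries (0.93, 0.92 and 0.91). These correlations are descriptive, and their points share the contrast of the diets. Abcc12, a further ABC transporter, averaged 0.25 CPM in CT males on CTD and 2.80 CPM under HFC. Most like Slc10a1 were Hlf, a transcription factor with circadian output in liver, Slc25a13, the mitochondrial aspartate-glutamate carrier, and Atp5a1, a subunit of ATP synthase (0.97, 0.96 and 0.96). Hlf averaged 97.4 CPM in CT males on CTD and 62.8 CPM under HFC.

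The other genes of the pathway were counted by list. The shares of all tested genes called higher on HFC were 10.6% in CT males and 15.5% in KO males. In females they were 0.936% in CT and 3.94% in KO. The shares called lower were 9.4%, 13.6%, 1.26% and 4.65% in that order. Of 15 genes of bile acid synthesis and conjugation, none rose and 7 fell in CT males, and none rose and 3 fell in CT females. Cyp7a1, the rate-limiting enzyme of the classical pathway, went from 178 to 9.90 CPM in CT males (log2 -4.17, edgeR adjusted p = 0.00114) and from 258 to 17.2 CPM in CT females (log2 -3.91, adjusted p = 0.0123). Cyp8b1, which directs synthesis to cholic acid, fell in CT males (log2 -7.01) and CT females (log2 -8.09) with adjusted p = 6.62e-05 and 5.33e-08. Cyp27a1, of the acidic pathway, gave -0.58 in CT males (adjusted p = 0.00326), and Akr1d1, a steroid reductase, gave -0.77 in CT females (adjusted p = 0.0364). In KO males 1 rose and 9 fell, and in KO females none rose and 7 fell. The list median in CT males was -0.30.

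Of 12 other carriers of both membranes, 3 rose and 3 fell in CT males, and 2 rose and none fell in CT females. Abcg5 and Abcg8, the 2 parts of the sterol exporter into bile, rose in CT males (log2 1.25 and 1.04, edgeR adjusted p = 0.000287 and 0.00411) and in CT females (log2 0.96 and 0.89, adjusted p = 0.00657 and 0.0486). Abcb1a, a drug efflux pump, rose in CT males by log2 2.58 (adjusted p = 0.000418). In KO males 3 rose and 4 fell, and in KO females 3 rose and none fell.

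The partners and relatives of FXR were counted in the same way. Of 13 tested genes of that list, which includes Rxra, none was called in CT males, CT females or KO females by edgeR, and the smallest p in CT males was that of Rxra (log2 -0.22, adjusted p = 0.117) and in CT females that of Nr1i3 (log2 -0.29, adjusted p = 0.538). In KO males 4 fell, among them Rxra (log2 -0.48) and the bile acid regulator Nr5a2 (log2 -0.30), both named after their values were seen. Of 6 other reported FXR targets, 2 rose in CT males, the hormone gene Fgf21 (log2 3.27, adjusted p = 0.0298) and the apolipoprotein gene Apoc2 (log2 0.35, adjusted p = 0.0333). None was called in CT females, where Vldlr had the smallest p (log2 -0.75, adjusted p = 0.0562). In KO males none of the 6 rose and 1 fell, and in KO females 1 rose and 1 fell.

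Targets of the sensors CAR, PXR and NRF2, to which Abcc3 and Abcc4 are also known to respond, were mostly called higher outside CT females. In CT males 9 of 12 rose and none fell, with Ephx1, an epoxide hydrolase, at log2 1.71, Gstm1, a glutathione transferase, at 2.62 and Gclm, of glutathione synthesis, at 0.52 (edgeR adjusted p = 0.000359, 0.000394 and 0.000527). In KO males 8 rose, and in KO females 8 rose. In CT females 2 rose, Ephx1 (log2 2.05, adjusted p = 0.000637) and Cyp2c55 (log2 2.35, adjusted p = 0.0392). The list median in CT males was 1.24.

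Markers of other cell types were counted by list as well. For comparison, 10.6% of all tested genes were called higher on HFC in CT males and 15.5% in KO males. In females these shares were 0.936% in CT and 3.94% in KO. Macrophage markers summed to 323 to 481 CPM in CT males on CTD and 631 to 1002 CPM under HFC, and to 265 to 326 and 774 to 1034 CPM in KO males. In females they summed to 259 to 711 and 519 to 819 CPM in CT and to 269 to 636 and 440 to 1357 CPM in KO, with overlap. Of the markers 9 of 10 rose in CT males, led by Cd52, Aif1 and Ptprc (log2 1.73, 1.23 and 1.02). In KO males 10 of 10 rose, and in females of either genotype none was called, Cd68 coming first in CT (log2 1.36, edgeR adjusted p = 0.230). Cholangiocytes can carry the organic solute transporter, and their 10 markers summed to 75.8 to 112 CPM in CT males on CTD and 117 to 147 CPM under HFC. These sums did not overlap. Of the markers only Muc1 rose in CT males (log2 1.37, edgeR adjusted p = 0.00465), and the median log2 fold change of the list was 0.42. None was called in CT females, where Slc10a2 had the smallest p (log2 1.27, adjusted p = 0.125), and their sums were 81.8 to 97.7 CPM under CTD and 71.1 to 119 CPM under HFC. The sums in KO were 84.5 to 118 CPM under CTD and 127 to 313 CPM under HFC in males, without overlap. They were 83.6 to 188 and 83.9 to 244 CPM in KO females, with overlap. In KO males 4 of 9 tested rose, with a list median of log2 0.69, and in KO females none was called. Intestine also carries this transporter in abundance. Of its 10 markers 3 passed the filter in males and 2 in females, and the defining marker Fabp6 had at most 1 read in any library. The list summed to 423 to 636 CPM in CT males under CTD and 271 to 522 CPM under HFC, and to 372 to 917 and 273 to 1090 CPM in KO males. In females the sums were 228 to 307 and 277 to 700 CPM in CT and 233 to 417 and 348 to 1226 CPM in KO. The highest sums of each sex were those of KO HFC 414 and KO HFC 412, which were also the livers with the most Slc51b in each sex, at 4.84 and 6.98 CPM. Most of both sums was Apoa4, an apolipoprotein gene that liver also expresses, at 1019 CPM in KO HFC 414 and 1092 CPM in KO HFC 412. Of these markers Fabp2, which liver also expresses, gave log2 0.27 in CT males (adjusted p = 0.226) and rose in CT females (log2 1.02, adjusted p = 0.0351) and in KO females (log2 1.60, adjusted p = 0.00157), and none of the list was called in KO males. Of 10 endothelial markers 1 rose in CT males (Cdh5, log2 0.41, edgeR adjusted p = 0.0468), near the share of all tested genes. In CT females none rose (Clec4g, log2 0.54, adjusted p = 0.116). In KO males 3 of 10 rose (Cdh5, Lyve1 and Pecam1, named after their values were seen, with log2 0.84, 0.70 and 0.50), and in KO females none was called. The part of these cell types in the transporter values was not tested.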

How the data were processed

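Whole-liver RNA of 28 mice was sequenced, and for each sex the authors deposited gene-level counts, in whole reads, and CPM, equal to a count scaled by its library's total. FastQC, edgeR and GRCm38 (mm10) are named, per the submitters' processing notes. The read aligner, gene models, counter and its strand setting were not given in the sources used here. Libraries held 18741939 to 22652285 counts, and no molecular identifiers are named, so limits from counts cover counting error only.

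Counts were tested in R 4.3.3 with edgeR 4.0.16 (TMM factors, filterByExpr, robust quasi-likelihood F test, all 4 groups of a sex in the fit, and all 8 groups for contrasts over both sexes). Benjamini-Hochberg adjustment ran over all tested genes (14078 in males, 13999 in females, 14685 in both), and adjusted p under 0.05 was called. The standard error (SE) is the log2 fold change over the square root of F, an approximation. Alternatives were DESeq2 1.42.0, limma 3.58.1 on log2 of the deposited CPM with a pseudocount of 1, RLE factors, library totals, no filter, the 2 groups alone, and each animal left out. On simulated counts for the diet effect in CT males (14078 genes), edgeR recovered 75.5% of the 49 with a change of log2 1. For CT females (13999 genes) it recovered 58% of 50. Of the genes left unchanged in the simulation, 7 of 13723 in males and 5 of 13593 in females were called.

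Animals of a group are separate mice by number, and every pair differed by more than sampling noise. The members and the 10 gene lists (110 genes) were chosen with earlier results of these data known. From each list, up to 3 called genes with the smallest adjusted p in CT males and in CT females were named, or, with no call, the 1 of lowest p, with all members, Myc, and the 3 genes nearest in pattern to Slc51b and to Slc10a1. Coordinates and exon lengths are from GENCODE M21 (GRCm38), counted from 1. Genes were matched by symbol.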

Additional observations from a re-analysis of the deposited data

Results flagged for a closer look

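In groups of 4 males, 4 of 36 combinations of gene and group held an animal far from the other 3, judged by its gap to the nearest animal relative to the group's range. Chance flags about 1 in 20 groups. Abcb11 was low in CT CTD 313, at 497 CPM, against 564 CPM in the nearest animal. Abcc4 was high in CT CTD 320, at 3.32 CPM against 2.38 CPM. In KO CTD 303 Nr1h4 was high, at 167 CPM against 156 CPM, and Slc51b was low, at 0.249 CPM against 0.328 CPM. The Slc51b gap is a matter of 5 against 7 reads. Groups of 3 females were not examined in this way.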

How the results depend on the processing

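Of 1961 values of single genes under alternatives, 1892 stayed on the same side of the threshold, 38 were no longer called and 31 were newly called. No called value changed sign, and 118 uncalled values did. The number of the 9 genes called in CT females, 0 in the edgeR fit, was 4 on library totals, 4 by DESeq2, 4 by limma on deposited CPM and 2 with only the 2 groups compared. These were not the same genes. Library totals and limma called Abcb11, Abcb4, Slc51b and Nr0b2, while DESeq2 called Slc10a1, Slc51b, Nr1h4 and Nr0b2. In KO females, 4 in the edgeR fit, it was 5 by DESeq2, 5 by limma on deposited CPM and 2 with only the 2 groups compared. Library totals newly called Abcb11, Abcb4 and Abcc4 there and lost Nr1h4. In KO males, 6 in the edgeR fit, it was 7 by DESeq2 and 9 by limma. There library totals newly called Abcb11, Abcb4 and Abcc2. Calls were lost in KO males without the filter (Abcc4 and Nr0b2) and with only the 2 groups compared (Nr0b2). Leaving out each animal in turn gave 6 to 8 called genes in CT males, 4 to 6 in KO males, 0 in CT females and 2 to 5 in KO females. The lowest value in KO females, 2, came without KO CTD 309, KO HFC 412 or KO HFC 419. It was 0 in every comparison of genotype, interaction or sex. Cases where fewer animals or groups entered the fit also had less information, and the cause of the other changes was not tested.

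Counts over all tested genes moved by more than 1.5 times in several settings. For diet in CT males, 2820 became 4535 on library totals (4125 higher, 410 lower), 4583 by limma and 1753 without CT HFC 418. For CT females, 307 became 1827 on library totals (1682 higher, 145 lower), 1802 by limma, 919 by DESeq2, 804 with only the 2 groups, and 72 to 118 without CT CTD 306, CT CTD 308, CT HFC 420 or CT HFC 510. For KO females, 1202 became 3737 (3357 higher, 380 lower), 3378, 1884 and 435 in the same order, 2671 without KO HFC 413, and 566 to 765 without any other. The sex difference of the diet effect, 1 gene in CT and 23 in KO, was 44 and 118 by DESeq2, 24 and 42 by limma, 2 to 12 and 12 to 82 in the settings without an animal that moved it, and 3 in CT on library totals. Without KO HFC 413, 9 genes were called for KO against CT in females on HFC, none of them among the 9 described here.

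No paired analysis was possible because each animal has its own number and no number is shared between groups. With 3 or 4 animals a group, simulated log2 changes of 0.5 were recovered for 46% of 50 genes in males and 8.33% of 48 in females. Small differences in females were thus mostly missed in the simulation. It changed far fewer genes than were called for diet in CT males, so its rates need not hold for the real comparisons. Slc51b on CTD rests on 2 to 22 reads a library.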
